A study of Mus musculus with 2 samples.

Results

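TGF-beta, BMP and activin signalling genes were compared between 2 pools of RNA from the cerebral cortex of newborn mice. The family was taken by gene symbol from probe sets naming exactly 1 gene. It covers the Bmp, Bmpr, Tgfb, Tgfbr, Smad, Inh, Acvr, Ltbp and Gdf genes and the antagonists Nog, Chrd, Fst and Grem1. It held 51 of 18193 named genes, read by 108 of 34945 such probe sets.

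The pool labelled double knockout was MRTF-A-/-;MRTF-BF/F;GFAP-Cre, and the pool labelled control was MRTFA-/-;MRTF-BFlox/Flox. By these labels both pools carried Mrtfa null and floxed Mrtfb alleles, and the pool labelled double knockout alone also carried GFAP-Cre. MRTF-A and MRTF-B are actin-regulated coactivators of the transcription factor SRF. Cre, the recombinase that cuts out floxed DNA, is driven here by the promoter of a glial filament gene, so deletion is limited to cells with a history of Cre expression, while the RNA came from whole cortical tissue. Each pool mixed RNA of 3 animals and was read on 1 Affymetrix array. The age of both pools is given as postnatal day 0, except that 1 description of the pool labelled double knockout gives day 1. A single array stood for each group, so no replicate error exists, no difference could be tested, and each value describes these 2 pools only.

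TGF-beta family ligands are secreted dimers that bring together type I and type II serine/threonine kinase receptors. BMP receptors signal through Smad1, Smad5 and Smad9, and TGF-beta and activin receptors through Smad2 and Smad3. These Smads join Smad4 and enter the nucleus, while Smad6 and Smad7 restrain the pathway. In the developing cortex BMPs come from the dorsal midline, choroid plexus and meninges and favour astrocyte fates in late progenitors, and microglia depend on TGF-beta 1.

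Signals are MAS5 intensities as deposited by the authors. Differences are on the log2 scale, double knockout minus control, after the arrays were centred on each other and low signals were set to a floor of 178.6, the median signal over both arrays. A gene with at least 1 array over the floor counts as measured.

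The targeted genes were read first as a check of the labels. Mrtfb read 2482 in the pool labelled double knockout, against 3359 in the pool labelled control, 1.36-fold lower on its brightest probe set. Mrtfa, although null by both labels, read 262.4 in the pool labelled double knockout, against 601.6 in the pool labelled control, 2.30-fold lower. The labels name no difference in Mrtfa between the pools, and this value rests on 1 probe set. Whether the pools differ in Mrtfa as well as in Cre was not tested. The sources used here do not say whether these probe sets lie in the deleted parts. Cortical projection neuron markers were measured in 8 of 8 cases and cerebellar and hindbrain markers in 0 of 6. Striatal markers were also measured in 8 of 8 cases, and all 8 were lower, with a summed signal of 6626 in the pool labelled double knockout, against 8340 in the pool labelled control. The median differences were -0.32 for oligodendrocytes, -0.04 for pericytes, 0.03 for astrocytes, -0.05 for radial glia and progenitors, 0.07 for projection neurons and 0.11 for interneurons. Medians near 0 hide single markers that lay farther out on both sides. Higher were Tbx18 of the pericytes at 0.74, Dlx1 of the interneurons at 0.64 and Gfap of the astrocytes at 0.59. Lower were Slc17a7 of the projection neurons at -0.55 and Emx2 of the progenitors at -0.45. The part of tissue makeup in the family's values was not tested.

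Few members differed between the pools by more than a small amount. Of the 51 members 37 were measured, 33 of them on both arrays. Among the 37, 19 were higher (51.4%, against 52.9% of all 11636 measured genes) and 18 were lower (48.6%, against 47.1%). The median difference was 0.01 log2 over the members and 0.01 log2 over all measured genes. When each gene took the mean over its probe sets in place of the brightest, 37.8% of the members and 48.3% of all genes were higher, and the members' median was -0.04. Bmpr1b alone was at least 1.5-fold higher, as were 0.37% of all genes, and 0 members were at least 1.5-fold lower, as were 0.773% of all genes. The split of all genes at 1.5-fold, 43 higher and 90 lower, was 66 higher and 70 lower after quantile normalization and 60 higher and 72 lower after loess centring. At a smaller limit of 0.32 log2 either way, Bmpr1b and Bmp6 were past it on the higher side, as were 3.45% of all genes, and 0 members on the lower side, as were 5.54% of all genes. Among members measured on both arrays the lowest, Smad5 and Inhba, came to -0.32 each after rounding and lay just inside it. The values of Acvrl1, Gdf2 and Acvr1c are bounds, because only the control signal reached the floor. When the 25th percentile was the floor they came to -0.73, -0.55 and -0.45, past the limit on the lower side. The count of 0 members there thus depends on the floor.

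**Figure D1:**
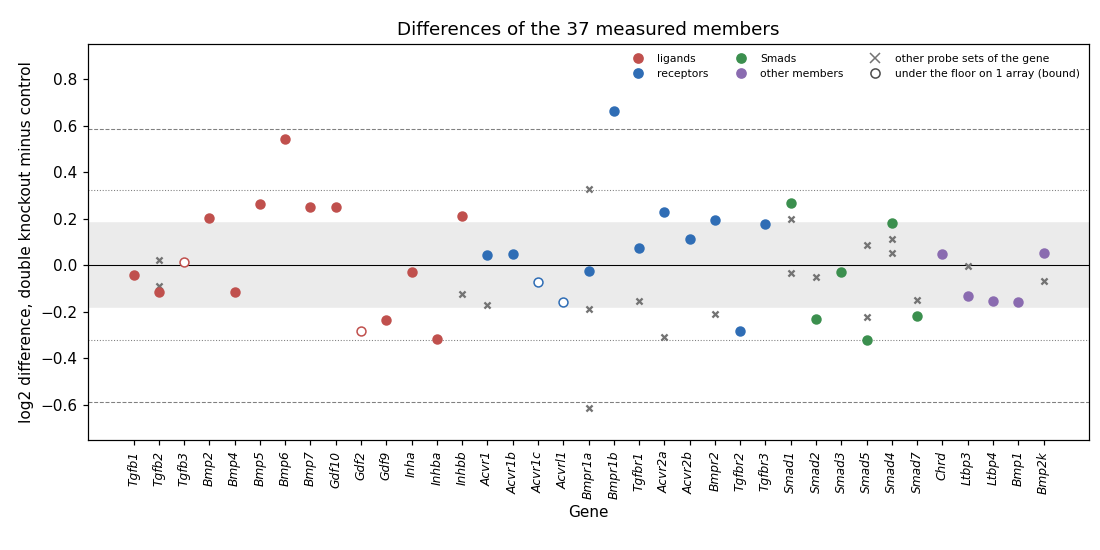
Log2 difference (double knockout minus control, vertical axis) of each of the 37 measured members on its brightest probe set (circles), and of the gene's other probe sets that both arrays measured (crosses). Open circles are members under the floor on 1 array, whose value is a bound; the grey band is ± 0.18, the SD over probe sets of a gene pooled over all genes; dotted lines are 0.32 and -0.32 and dashed lines 1.5-fold. Bmpr1b is the only circle past the dashed line, and the crosses of Bmpr1a lie on both sides of 0.

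Probe sets of the same gene give the only measure of spread here, and it covers none between animals. Over all 4858 genes with several probe sets measured on both arrays, the pooled SD was 0.18 log2, and over the 14 members of that kind it was 0.22. The probe sets of a gene all differed in the same direction in 4 of these 14 members (Smad2, Smad4, Smad7 and Ltbp3), or 28.6%, against 43.1% of all such genes. Ltbp3 counted among them through the centring alone, since 1 of its probe sets read 443.6 on both arrays and the other carries the probe set name suffix that marks possible cross-hybridisation. In 9 of the 14 members (64.3%) the brightest probe set had a higher difference than the mean of the others, and so it did in 60.5% of all such genes. The other 19 members measured on both arrays rested on 1 such probe set each.

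The spread narrowed with signal. When all 11014 genes measured on both arrays were cut into 3 bands of equal size by signal, the SD of the differences was 0.23 in the dimmest band, 0.18 in the middle band and 0.13 in the brightest. The members numbered 16, 10 and 7 in these bands, with an SD of 0.29, 0.15 and 0.09. Bmpr1b and Bmp6 both lay in the dimmest band.

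**Figure D2:**
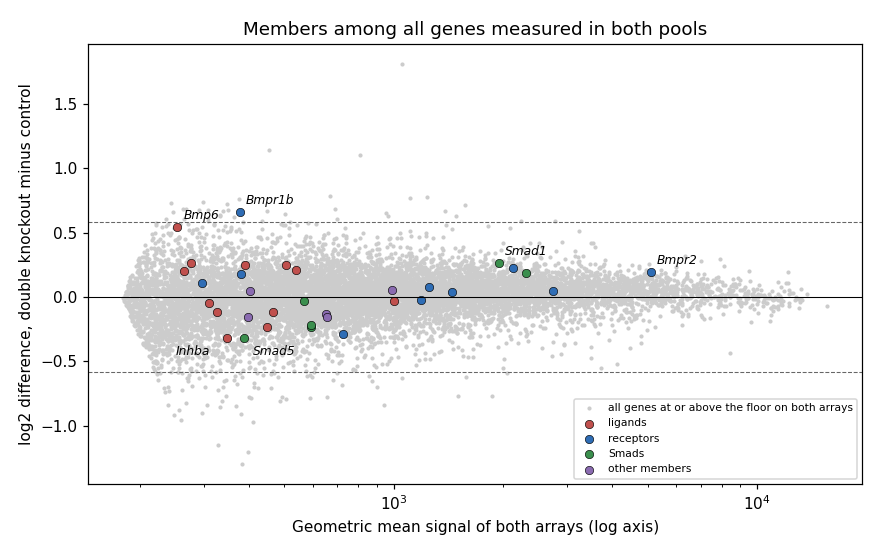
Log2 difference (double knockout minus control) against the geometric mean signal of both arrays (log axis) for all 11014 genes measured on both arrays (grey) and the 33 members among them (coloured by role); dashed lines mark 1.5-fold. The spread of all genes narrows as signal increases, and the members lie within it, with Bmpr1b and Bmp6 at its upper edge.

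The RefSeq promoter table (GRCm38.p6) held 46 windows for 37 of the 51 members, and the 250 bases before each start were searched on both strands. Upstream sequences are shown for Bmpr1b and Bmp6, the highest members, and for Inhba, the lowest ligand measured on both arrays, so that the start regions of members differing in opposite directions can be compared. Capitals mark GTCTG, which holds the core of the box bound by Smads and reads as CAGAC on the other strand. Capitals also mark any GGCGCC, a GC-rich element bound by BMP Smads, which can overlap the first motif by no more than an end base. Bmpr1b has several annotated starts, of which the farthest upstream is shown, on the minus strand at chr3:141982265-141982514. Bmp6 lies on the plus strand at chr13:38345466-38345715 and Inhba on the plus strand at chr13:16011601-16011850.
Bmpr1b: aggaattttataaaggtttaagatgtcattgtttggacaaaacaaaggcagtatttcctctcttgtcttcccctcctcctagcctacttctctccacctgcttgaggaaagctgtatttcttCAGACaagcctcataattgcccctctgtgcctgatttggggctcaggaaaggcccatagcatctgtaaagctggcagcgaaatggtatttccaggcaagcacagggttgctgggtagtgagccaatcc
Bmp6: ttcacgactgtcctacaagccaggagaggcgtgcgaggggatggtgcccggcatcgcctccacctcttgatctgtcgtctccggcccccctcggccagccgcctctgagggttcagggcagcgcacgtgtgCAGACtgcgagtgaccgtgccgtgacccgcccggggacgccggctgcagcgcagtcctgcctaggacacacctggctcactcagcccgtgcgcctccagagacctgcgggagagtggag
Inhba: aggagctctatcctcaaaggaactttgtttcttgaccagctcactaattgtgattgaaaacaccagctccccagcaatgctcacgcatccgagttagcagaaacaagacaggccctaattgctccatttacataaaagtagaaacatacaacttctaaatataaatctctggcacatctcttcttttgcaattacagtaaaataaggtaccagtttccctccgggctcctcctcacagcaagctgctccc

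In the windows printed Bmpr1b and Bmp6 each held 1 GTCTG match, 128 to 124 and 119 to 115 bases before the start. Inhba held none of either motif. Of the Bmpr1b windows not printed, 1 held its match 245 to 241 bases before the start and another held none. Windows of the lower members Smad5, at -0.32, and Tgfbr2, at -0.28, held GTCTG as well. Its presence therefore did not separate higher from lower members. GTCTG was present in 19 of the 46 member windows (41.3%), against 42.2% of all 32851 windows, a similar share. GGCGCC was present in 10 member windows (21.7%), against 9.59% of all windows. They belonged to Bmp2k, Bmpr1a, Bmpr2, Chrd, Grem1, Ltbp4, Smad5, Smad9 and Tgfbr1, and a gene with several windows can count more than once. Genes with it also lay on both sides of 0, such as Smad5 at -0.32 and Bmpr2 at 0.19. The higher share was not tested. The palindrome GTCTAGAC was in 0 member windows, against 0.167% of all. The CArG box, the site bound by SRF, was in 0 of the 46 member windows, against 1.47% of all windows, which says only that these letters are not in these 250 bases. A match is a description of the sequence and not a bound site.

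BMP ligands were mostly higher in the pool labelled double knockout. Of 9 BMP ligand genes on the array 5 were measured, 4 of them higher and 1 lower, with a median of 0.25 log2. Over all measured genes 52.9% were higher and the median was 0.01. All 5 ligands lay in the dimmest band of signal, where the SD of the differences over all genes was 0.23. Bmp6, a BMP also known for controlling iron uptake through the liver, read 307.3 in the pool labelled double knockout, against 210.3 in the pool labelled control. That was 1.46-fold higher (0.54 log2) on its only probe set, and it came to 0.62, past 1.5-fold, after quantile normalization and to 0.319, just under the smaller limit of 0.322, when a pseudocount replaced the floor. The upstream window of Bmp6 is among those printed. Bmp5, a close relative of Bmp6, read 304.8 in the pool labelled double knockout, against 253.7 in the pool labelled control, a difference of 0.26. Bmp7, another relative, read 425.5 in the pool labelled double knockout, against 356.7 in the pool labelled control, a difference of 0.25. These 3 genes form a subfamily of BMP ligands, and each was higher on its only measured probe set.

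Bmp2, whose product is closely related to that of Bmp4, read 285.0 in the pool labelled double knockout, against 247.2 in the pool labelled control, a difference of 0.20. Bmp4, a patterning signal of the dorsal forebrain, was the lower member, at 313.9 in the pool labelled double knockout and 339.2 in the pool labelled control, a difference of -0.12. The relatives Bmp2 and Bmp4 thus lay on opposite sides of 0, each on 1 probe set. Both were within the SD of 0.23 over all genes of the dimmest band, so this is no firm contrast. Bmp8a, Bmp8b, Bmp10 and Bmp15 stayed under the floor on both arrays.

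Markers of the meninges, a known source of BMPs, were higher in the same pool. Among 16 measured of 19 meningeal and fibroblast markers, 14 had higher and 2 lower values, and the median difference was 0.23. The summed signal of all 19, those under the floor included, was 15056 in the pool labelled double knockout, against 12021 in the pool labelled control. Aldh1a2, which makes retinoic acid, was higher by 0.68, Igf2, an insulin-like growth factor, by 0.59, Islr by 0.53 and Ogn, a matrix proteoglycan, by 0.51, with a mean of 0.27 ± 0.34 for Ogn (SD, 2 probe sets). Foxd1, Lama1 and Crabp2 of this list were under the floor on both arrays. The part of this tissue in the BMP ligand values was not tested, and in pooled tissue more cells of a type cannot be told apart from more RNA per cell.

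Choroid plexus markers, from the other BMP-rich tissue, mostly lay on the other side. Of 7 on the array 4 were measured, and 3 of these had lower values and 1, the thyroid hormone carrier Ttr, a higher one, for a median difference of -0.15. The summed signal of all 7, those under the floor included, was 13735 in the pool labelled double knockout and 13544 in the pool labelled control. Most of it came from Ttr, at 12739.7 in the pool labelled double knockout and 12405.5 in the pool labelled control. Kcnj13, a potassium channel of that epithelium, differed by -0.41 and Clic6 by -0.24.

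TGF-beta ligands differed little. Tgfb1, the isoform most tied to immune cells, read 305.8 in the pool labelled double knockout, against 314.2 in the pool labelled control, a difference of -0.04. Tgfb2, expressed by many cells of the embryonic nervous system, read 449.1 in the pool labelled double knockout, against 485.4 in the pool labelled control. Its mean difference was -0.06 ± 0.07 (SD, 3 probe sets). One more Tgfb2 probe set read 112.5 in the pool labelled double knockout, a value below the floor, against 208.5 in the pool labelled control, with a bound of -0.22. Tgfb3 read 180.7 in the pool labelled double knockout, just above the floor, and 167.2, below it, in the pool labelled control, so its difference of 0.01 is only a lower bound. Tgfb1 and the Tgfb2 probe sets measured on both arrays lay within the pooled probe set SD. Microglia and macrophage markers, the cells that depend on TGF-beta 1, had a summed signal of 10914 in the pool labelled double knockout, against 10154 in the pool labelled control, with 8 of 13 higher and 5 lower and a median of 0.11. Among them Mrc1, a receptor of border macrophages, was higher by 0.68, and P2ry12, a microglial receptor whose expression is known to need TGF-beta signalling, differed by -0.37.

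Activin and inhibin subunits went both ways. Inhba encodes the subunit of activin A, a factor that neurons induce with activity. It read 313.1 in the pool labelled double knockout, against 389.2 in the pool labelled control, a difference of -0.32 on the 1 probe set that reached the floor. Inhbb, the subunit of activin B, read 579.9 in the pool labelled double knockout, against 500.1 in the pool labelled control, a difference of 0.21. Its second probe set read 339.3 in the pool labelled double knockout and 368.4 in the pool labelled control, so the mean was 0.04 ± 0.23 (SD, 2 probe sets). Inha, the inhibin subunit that turns activin dimers into antagonists, read 993.2 in the pool labelled double knockout and 1010 in the pool labelled control, a difference of -0.03. Of the 3 subunits Inhba alone lay beyond the pooled probe set SD of 0.18 with no second probe set in the other direction. Its other probe set was under the floor on both arrays and could show no direction. Inhba also lay in the dimmest band, where the SD over all genes was 0.23.

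Growth and differentiation factors were measured in 3 of 6 cases. Gdf10, a BMP relative found in glia, read 553.2 in the pool labelled double knockout, against 464.1 in the pool labelled control, a difference of 0.25. Gdf9, best known from the oocyte, read 414.2 in the pool labelled double knockout, against 486.5 in the pool labelled control, a difference of -0.24. Gdf2, which encodes the circulating ligand BMP9 made in liver, read 148.3 in the pool labelled double knockout, a value below the floor, against 217.0 in the pool labelled control, at least 1.21-fold lower. Gdf3, Gdf5 and Gdf11 were under the floor on both arrays. Gdf11 came closest, at 150.4 in the pool labelled double knockout and 176.7 in the pool labelled control.

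All 12 receptor genes of the family were measured, 8 higher and 4 lower, with a median of 0.06, which turned to -0.04 with the mean over probe sets. The largest difference of any member belonged to Bmpr1b, a type I BMP receptor that acts in cartilage, ovary and neural progenitors. It read 475.4 in the pool labelled double knockout, against 299.4 in the pool labelled control, 1.58-fold higher (0.66 log2). Its other probe sets were under the floor on both arrays, at 59.5 in the pool labelled double knockout and 78.0 in the pool labelled control on one, and at 32.6 in the pool labelled double knockout and 5.8 in the pool labelled control on the other, where signals have no reliable order. The Bmpr1b difference therefore rested on 1 probe set, and it came to 0.45, short of 1.5-fold, when a pseudocount replaced the floor. Its upstream window with 1 GTCTG match is among those printed.

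Bmpr1a, the more widely expressed BMP type I receptor, had 4 probe sets measured on both arrays. The brightest read 1185 in the pool labelled double knockout, against 1201 in the pool labelled control, a difference of -0.02. A second read 340.6 in the pool labelled double knockout, against 518.7 in the pool labelled control, a difference of -0.61. Another read 377.2 in the pool labelled double knockout, against 428.5 in the pool labelled control, a difference of -0.19. The last, which carries the mark for possible cross-hybridisation, was the higher one, at 278.0 in the pool labelled double knockout, against 220.9 in the pool labelled control, a difference of 0.33. One more probe set read 124.2 in the pool labelled double knockout, a value below the floor, against 191.0 in the pool labelled control, with a bound of -0.10. The unmarked probe sets of Bmpr1a were thus all lower, by amounts that varied widely, and the marked one was higher. Over the 4 measured on both arrays the mean was -0.12 ± 0.39 (SD), the widest spread among the members.

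Of the other type I receptors, Tgfbr1, the TGF-beta type I receptor, read 1286 in the pool labelled double knockout, against 1219 in the pool labelled control, with a mean of -0.04 ± 0.16 (SD, 2 probe sets). Acvr1, a BMP type I receptor, had a mean of -0.06 ± 0.15 (SD, 2 probe sets). Acvr1b, the activin type I receptor, read 2793 in the pool labelled double knockout and 2695 in the pool labelled control, a difference of 0.05. Acvr1c, a receptor for Nodal and activin B, read 138.2 in the pool labelled double knockout, a value below the floor, against 188.0 in the pool labelled control, at least 1.05-fold lower. Tgfbr1, Acvr1 and Acvr1b lay within the pooled probe set SD.

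Acvrl1, the type I receptor of endothelial cells, read 120.7 in the pool labelled double knockout, a value below the floor, against 199.1 in the pool labelled control, at least 1.11-fold lower. With a floor set at the 25th percentile of signals its difference was -0.73. Its other probe set was under the floor on both arrays, at 122.5 in the pool labelled double knockout and 123.6 in the pool labelled control. Endothelial markers had a summed signal of 5080 in the pool labelled double knockout and 5143 in the pool labelled control, with 4 of 10 higher, 6 lower and a median of -0.10. Eng, the endothelial coreceptor that works with Acvrl1, read 409.2 in the pool labelled double knockout, against 461.6 in the pool labelled control, a difference of -0.18. The part of endothelial cells in the Acvrl1 value was not tested.

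Type II receptors were higher in 3 of 4 genes on the brightest probe set, with a median of 0.15. Bmpr2, the main BMP type II receptor, read 5462 in the pool labelled double knockout, against 4761 in the pool labelled control, a difference of 0.19. A dimmer Bmpr2 probe set differed by -0.21, and the mean was -0.01 ± 0.29 (SD, 2 probe sets). Acvr2a, a type II receptor shared by activins and BMPs, read 2311 in the pool labelled double knockout, against 1967 in the pool labelled control, a difference of 0.23. A dimmer Acvr2a probe set read 444.0 in the pool labelled double knockout, against 548.6 in the pool labelled control, and the mean was -0.04 ± 0.38 (SD, 2 probe sets). The higher values of Bmpr2 and Acvr2a were thus met by lower ones on a dimmer probe set.

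Acvr2b, the paralog of Acvr2a, read 308.6 in the pool labelled double knockout, against 284.8 in the pool labelled control, a difference of 0.11. Tgfbr2, the TGF-beta type II receptor, was the lower gene of this class, at 658.9 in the pool labelled double knockout, against 800.1 in the pool labelled control. Its difference was -0.28 on the only measured probe set. Tgfbr3, or betaglycan, which presents TGF-beta to Tgfbr2, read 404.1 in the pool labelled double knockout, against 356.7 in the pool labelled control, a difference of 0.18, and a dimmer probe set had a bound of 0.20. The receptor Tgfbr2 and its presenting partner Tgfbr3 thus differed in opposite directions.

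**Figure D3:**
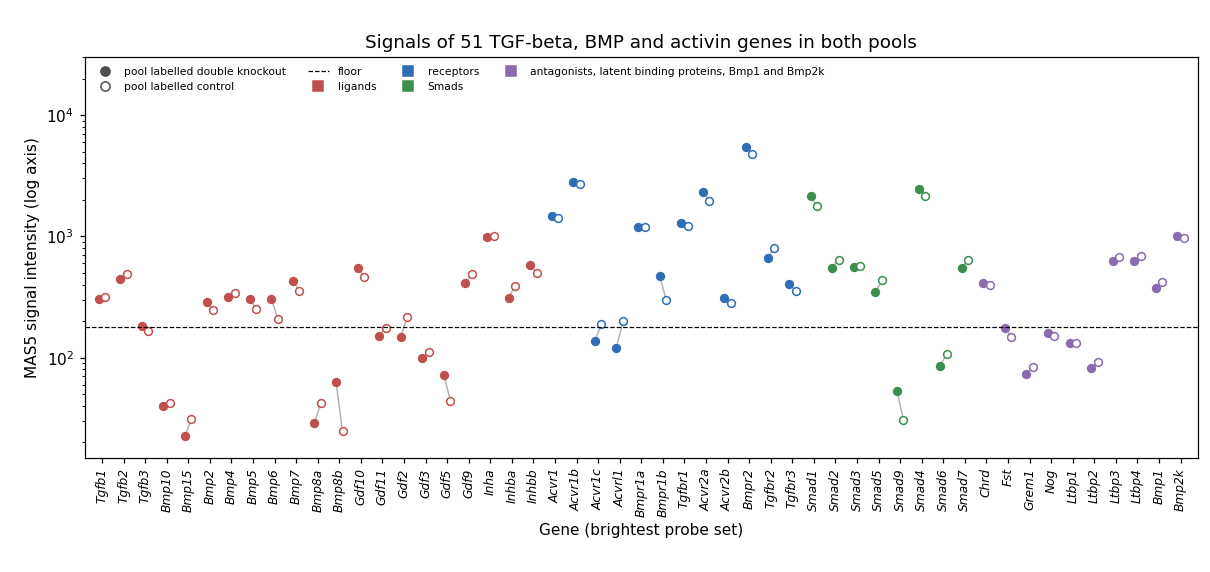
MAS5 signal intensity (log axis) of all 51 members on their brightest probe set in the pool labelled double knockout (filled) and the pool labelled control (open), coloured by role; the dashed line is the floor of 178.6. The points of most genes lie close together, and the 14 genes under the line in both pools are mostly ligands, antagonists and latent binding proteins.

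Smads, the intracellular carriers of the signal, were measured in 6 of 8 cases, with 2 higher, 4 lower and a median of -0.12. The median turned to 0.04 with a floor set at the 75th percentile of signals. At that floor Smad3 and Smad5 were not measured, and the lower values of Smad2 and Smad7 became bounds. Smad1, a BMP-responsive Smad, read 2139 in the pool labelled double knockout, against 1772 in the pool labelled control, a difference of 0.27. Its mean was 0.14 ± 0.16 (SD, 3 probe sets), with 2 probe sets higher and 1 at -0.03. Smad5, the other BMP-responsive Smad measured, read 347.6 in the pool labelled double knockout, against 432.9 in the pool labelled control, a difference of -0.32. Its mean was -0.15 ± 0.21 (SD, 3 probe sets), because 1 probe set lay at 0.09. The BMP-responsive pair thus differed in opposite directions on the brightest probe sets, each with another probe set across 0.

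Smad2, which carries TGF-beta and activin signals, read 548.3 in the pool labelled double knockout, against 641.6 in the pool labelled control, with a mean of -0.14 ± 0.13 (SD, 2 probe sets). Smad3, which does so too, read 562.1 in the pool labelled double knockout, against 572.3 in the pool labelled control, a difference of -0.03, while its dimmer probe sets, over the floor only in the pool labelled control, had bounds of -0.23 and -0.02. Smad4, the partner of all receptor-regulated Smads, read 2471 in the pool labelled double knockout, against 2171 in the pool labelled control. It was higher on all 3 of its probe sets, with a mean of 0.11 ± 0.07 (SD). Smad7, the inhibitory Smad that is itself induced by TGF-beta, read 549.6 in the pool labelled double knockout, against 636.7 in the pool labelled control. It was lower on both probe sets, of which the brightest carries the mark for possible cross-hybridisation, with a mean of -0.18 ± 0.05 (SD). The 2 members whose mean exceeded its SD by most were therefore Smad7, lower, and Smad4, higher. Smad6 and Smad9 were under the floor on both arrays.

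Secreted antagonists and matrix partners were mostly dim. Chrd, or chordin, which binds BMPs and keeps them from their receptors, read 409.7 in the pool labelled double knockout, against 395.3 in the pool labelled control, a difference of 0.05. The other antagonists Nog, Fst and Grem1 were under the floor on both arrays, Fst reaching 177.2 in the pool labelled double knockout, against 147.3 in the pool labelled control. Ltbp4, which stores latent TGF-beta in the matrix, read 622.9 in the pool labelled double knockout, against 691.8 in the pool labelled control, a difference of -0.16. Ltbp3, of the same function, had a mean of -0.07 ± 0.09 (SD, 2 probe sets), and Ltbp1 and Ltbp2 were under the floor. The antagonists and storage proteins that could be measured differed by less than the pooled probe set SD.

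Bmp1 and Bmp2k carry the BMP name without being ligands of the family. Bmp1, the metalloprotease that trims procollagens and cleaves chordin, read 378.2 in the pool labelled double knockout, against 420.7 in the pool labelled control, a difference of -0.16. A second probe set of Bmp1 read 173.5 in the pool labelled double knockout, a value below the floor, against 229.8 in the pool labelled control, with a bound of -0.36, and the mean over both was -0.26. Bmp2k, a kinase named for its induction by BMP2, had a mean of -0.01 ± 0.08 (SD, 2 probe sets). Bmp1 was thus lower on both measured probe sets, the dimmer of them beyond the pooled probe set SD, and Bmp2k lay within it.

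Other genes of the pathway also lay on both sides of 0 in each list. Of 22 measured extracellular modulators 11 had higher and 11 lower values, and the median difference was -0.01. Vasn, a membrane protein that traps TGF-beta, had a mean of -0.28 ± 0.17 (SD, 2 probe sets). Nrros, which anchors latent TGF-beta 1 on microglia, was higher by 0.27, at 229.3 in the pool labelled double knockout, against 189.1 in the pool labelled control. Dcn, a proteoglycan that binds TGF-beta and also a marker in the meningeal list, was higher by 0.23, and the protease Htra3 differed by -0.23. Of 6 measured ligands and receptors outside the name pattern 3 had higher and 3 lower values, for a median difference of -0.09. Cfc1, a Nodal coreceptor, differed by -0.31, Rgma, a BMP coreceptor, by -0.20, and Bambi, a decoy receptor induced by BMPs, by 0.18.

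Intracellular regulators numbered 30 measured genes, 18 higher and 12 lower, with a median of 0.02. Tgfb1i1, or Hic-5, a focal adhesion protein and known SRF target, was the lowest, at 471.7 in the pool labelled double knockout, against 644.6 in the pool labelled control, 1.37-fold lower. Pmepa1, a TGF-beta-induced inhibitor of Smad2 and Smad3, had a mean of -0.22 ± 0.18 (SD, 3 probe sets). Tab1, a partner of the kinase Tak1, differed by -0.26, and Smurf2, a ubiquitin ligase for Smads and receptors, had a mean of 0.05 ± 0.18 (SD, 3 probe sets). Pmepa1 and Smad7, both feedback inhibitors induced by TGF-beta, were thus both lower over their probe sets. This pair was singled out after the values were seen and does not stand for its lists. Of the 30 intracellular regulators 18 were higher, and of 19 measured transcriptional targets of the pathway 11 were higher and 8 lower. Whether TGF-beta signalling differed between the pools was not tested.

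Transcriptional targets numbered 19 measured genes, 11 higher and 8 lower, with a median of 0.03. Cdkn1a, the cell cycle inhibitor p21 and a TGF-beta target that many stresses also induce, was the only one past 1.5-fold, at 881.4 in the pool labelled double knockout, against 509.2 in the pool labelled control, 1.73-fold higher on 1 probe set. Bhlhe40 was higher by 0.35 and Junb, an immediate early gene, differed by -0.32. The Id genes, direct BMP targets that block neuronal bHLH factors, did not share a direction. Id4 had a mean of -0.29 ± 0.09 (SD, 3 probe sets), while Id1, Id2 and Id3, named after their values were seen, differed by 0.23, 0.16 and 0.03.

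**Figure D4:**
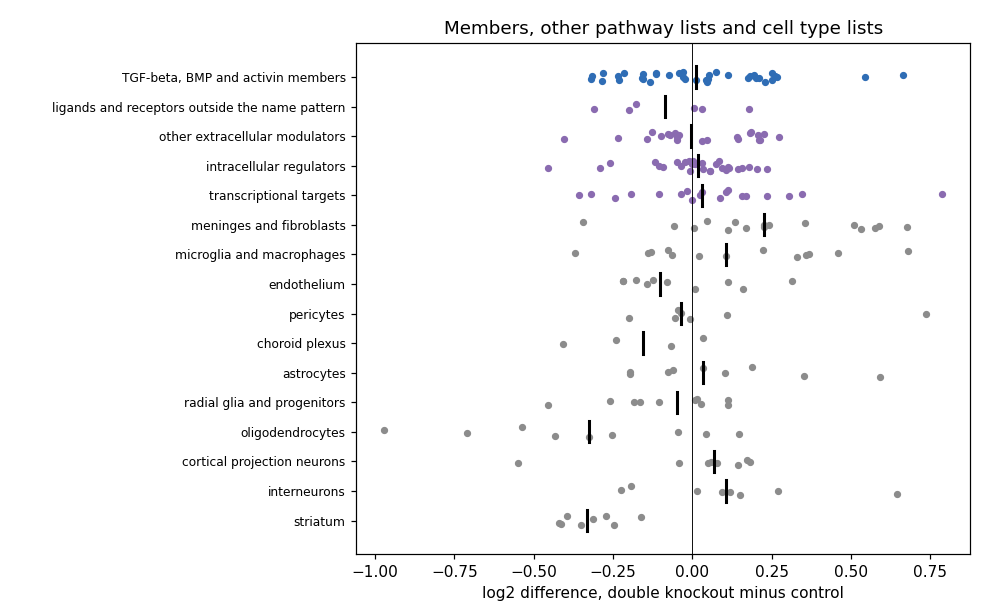
Log2 differences (double knockout minus control, horizontal axis) of single genes (points) in the family, in 4 other pathway lists and in 11 cell type lists with a measured gene; black bars are medians. The family and the pathway lists have medians between -0.09 and 0.03, while the meningeal list lies to the right, at 0.23, and the oligodendrocyte and striatal lists to the left, at -0.32 and -0.33.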

How the data were processed

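The authors deposited 1 linear signal intensity per probe set and array, and the submitters' processing notes name MAS5 as the tool. The sources used here give no version, target scaling or detection calls. RNA of 3 animals was pooled per array, per the labels' protocols, and 0 columns belonged to no listed sample.

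Control probe sets (64) were set aside. Of the other 45037, platform annotation named 1 gene for 34945, several for 932 and none for 9160; the last 2 kinds entered no gene value. Computation used Python 3.11.15 and its packages numpy 2.4.6, pandas 2.3.3, statsmodels 0.14.6 and matplotlib 3.10.9. The arrays were centred on each other (0.0037 log2), and signals under the 50th percentile of all signals, 178.6, were set to that floor. Printed signals are as deposited. A gene was measured when either array put a probe set at the floor or over it, and took the value of its brightest measured probe set; with 1 array at the floor the fold is a bound. The number of arrays limits the precision, and no test was possible. The steps were tested on simulated data, with set changes larger than the difference of any measured member and equal noise at all signals. That run checked the computation and says nothing on the calls made here.

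The members, roles and gene lists were chosen with earlier results of these data known. Every member may be named, and of each other list the 4 genes, or fewer, measured on both arrays that differed most in either direction. Alternatives were no centring, quantile normalization, loess centring (span 0.3), floors at the 25th and 75th percentile, a pseudocount of the floor's size, no floor or filter, the mean over probe sets, no probe sets marked for cross-hybridisation, and limits of 0.32 log2 and 2-fold.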

Additional observations from a re-analysis of the deposited data

How the results depend on the processing

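The median difference of the members, 0.01, turned to -0.019 when the 25th percentile was the floor, -0.023 with no floor and -0.040 with the mean over probe sets, where the medians of all genes were -0.0094, -0.020 and -0.0063; under the other 6 alternatives it stayed between 0.012 and 0.042. At a floor of the 75th percentile 15 members were measured, 8 higher and 7 lower. The count at least 1.5-fold higher was 1 (Bmpr1b), and 2 after quantile normalization or loess centring, where Bmp6 joined it at 0.62 and 0.61. It was 0 at that higher floor, with a pseudocount and at a 2-fold limit, 2 at a limit of 0.32 log2, and 4 with no floor, where the dim Bmp8b, Gdf5 and Smad9 joined. The count at least 1.5-fold lower was 0, and 1, Acvrl1 at -0.73, at the lower floor or with none. The cause was not tested. Of 311 recomputed values of single members 301 moved by less than the pooled probe set SD of 0.18 and 10 by more. Several alternatives return the same value by construction for a member over the floor whose only measured probe set is unmarked. Much of this count, and of the signs kept, was therefore fixed in advance and is no measure of stability. Acvr1, Acvr2a, Bmp2k, Bmpr2 and Tgfbr1 changed sign under 1 alternative each, and Tgfb1 under 2; the other 31 members measured kept their sign under all alternatives that measured them. Low signal limits Bmp6, Acvrl1, Gdf2 and Tgfb3, which lie near the floor. No paired analysis was possible because each group has 1 array.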

Other observations

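Probe sets that name several genes entered no value above, and 2 of them include a gene of the family. The probe set shared by Cers1 and Gdf1, genes known to be transcribed together in mouse, read 994.3 in the pool labelled double knockout, against 1084 in the pool labelled control, a difference of -0.13. The probe set shared by Orc4 and Acvr2a was under the floor on both arrays, at 54.2 in the pool labelled double knockout and 65.3 in the pool labelled control.

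Several dim members had large ratios below the floor, where signals have no reliable order. Bmp8b, a ligand known from germ cells and brown fat, read 63.0 in the pool labelled double knockout and 24.7 in the pool labelled control on 1 probe set. On the other it read 27.3 in the pool labelled double knockout and 8.5 in the pool labelled control. Smad9 read 53.2 in the pool labelled double knockout and 30.7 in the pool labelled control, and Gdf5, a joint-forming ligand, 71.8 in the pool labelled double knockout and 44.2 in the pool labelled control.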
